A study of Mus musculus with 6 samples.

Results

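The enzymes described here are the mouse's own front-end desaturases and their relative (*Fads1*, *Fads2* and *Fads3*), 5 fatty acid elongases (*Elovl1*, *Elovl2*, *Elovl5*, *Elovl6* and *Elovl7*) and 2 stearoyl-CoA desaturases (*Scd1* and *Scd2*). These 10 genes were found by symbol among the 61880 rows of the count table, and for each gene the counts of all rows with the same assembled locus were also added together, which gave 10 of 53912 loci. RNA had been sequenced from mammary epithelial cells of the inguinal glands of female FVB/NJ mice aged 6 to 8 weeks, with 3 pooled samples from transgenic *fat-1* mice and 3 from wildtype (WT) mice. All mice, transgenic and WT, stayed on the diet of their parents, a modified AIN93G diet in which safflower oil gave 10% of the weight and 22% of the energy as fat. Each sample was a pool of the glands of 2 to 3 mice, so that *p*-values below measure only the spread between pools. The *fat-1* transgene is the *n*-3 desaturase of a roundworm, so that *n*-6 fatty acids of the safflower oil are turned into *n*-3 fatty acids throughout the body of *fat-1* mice. The transgene is not a mouse gene and was not analysed here, so it gave no check of the genotype labels.

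Mammals cannot make linoleic or alpha-linolenic acid, but lengthen and desaturate what the diet supplies. *Fads2* (delta-6 desaturase) takes the opening step, *Elovl5* adds carbons, *Fads1* (delta-5 desaturase) then gives arachidonic acid from the *n*-6 series or eicosapentaenoic acid from the *n*-3 series, and *Elovl2* serves the later steps towards docosahexaenoic acid, so that both series draw on the same enzymes. The saturated and monounsaturated branch starts from palmitate, which *Elovl6* lengthens to stearate and *Scd1* and *Scd2* desaturate. Unsaturated fatty acids are known to lower the transcription of *Fads1*, *Fads2*, *Scd1* and *Elovl6* in liver through the factor SREBP-1, so that the comparison of *fat-1* with WT asks whether the mouse's own enzymes differ when an added desaturase changes the PUFA made in the gland.

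The counts of the 6 samples summed to between 204539059 and 232148824, and levels are given as CPM, counts per 1000000 of each sample's TMM-normalized total. The log2FC below is the fitted log2 fold change of *fat-1* relative to WT, given ± its standard error (SE). Of 12 luminal and 8 basal (myoepithelial) markers, 0 were under 1 CPM in all samples, but the isolates differed widely within each genotype. The luminal keratin *Krt8* had between 210 and 899 CPM and the basal keratin *Krt5* between 32.2 and 180 CPM. The mean log2(CPM + 1) of the 20 epithelial markers was 6.51, 4.72 and 5.73 in *fat-1* samples 1 to 3 and 6.58, 5.75 and 4.79 in WT samples 1 to 3, so that each genotype had a high, a middle and a low isolate. Lymph nodes had been removed from the glands, but RNA of other cells was present, with between 157 and 407 CPM of the leukocyte gene *Ptprc* and between 898 and 2080 CPM of the fibroblast gene *Dcn*. The defining adipocyte genes *Adipoq* and *Plin1* were near 0 in every sample, between 0.256 and 0.500 CPM and between 0.109 and 0.266 CPM. In such mixed samples, fewer cells of a type and less RNA per cell cannot be told apart.

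**Figure D1:**
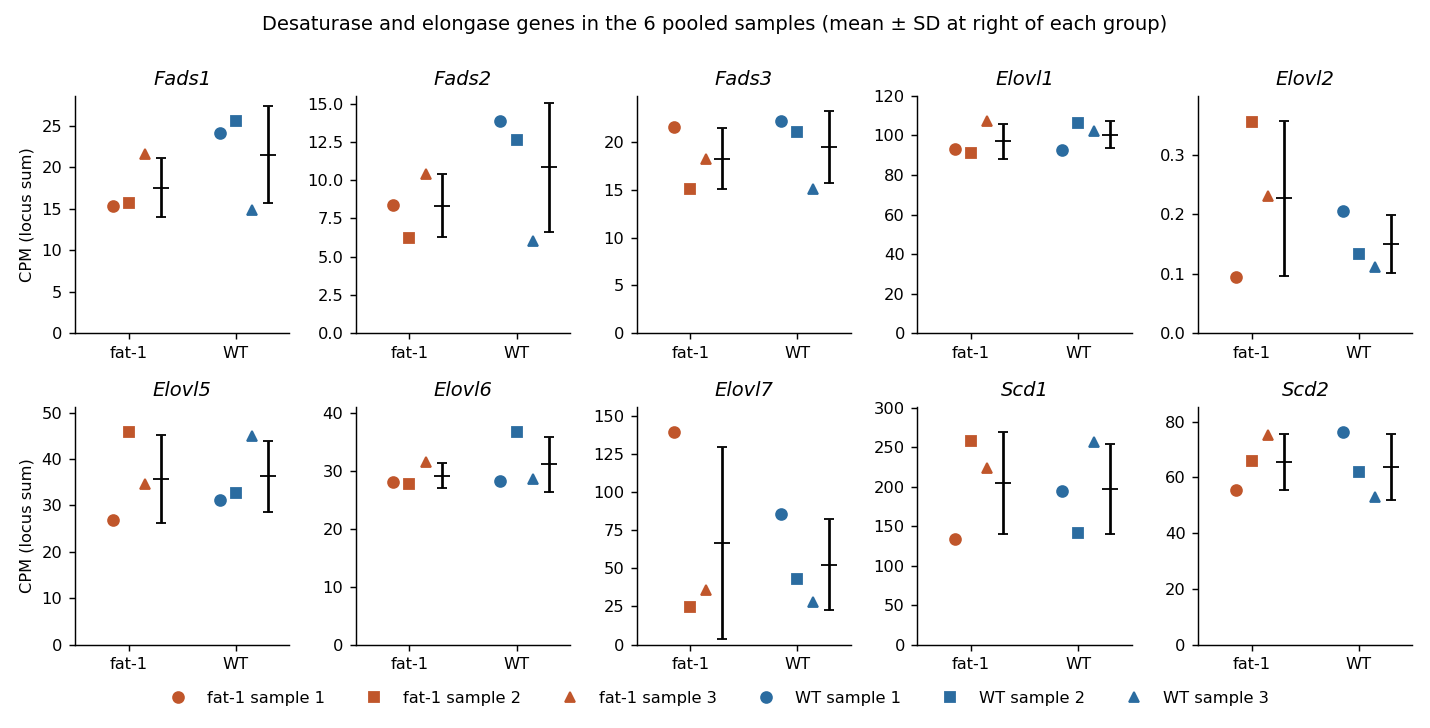
Level of each gene in CPM, summed over the rows of its locus, in the 3 *fat-1* and 3 WT samples (symbols by sample number; the bar gives the mean and SD of each genotype; each axis starts at 0). The genotypes overlap for all 10 genes, and *Elovl7* spreads most among the well expressed genes, from 24.6 to 139 CPM.

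No difference between *fat-1* and WT mice was detected for any of the 10 enzymes. With locus sums in edgeR's quasi-likelihood test, 0 of the 10 genes reached 0.05 after Benjamini–Hochberg adjustment over 24061 loci (0% of all loci did), and 0 of the 10 reached 0.05 before adjustment (1.14% of all loci did). On the rows with the gene symbol, 0 of the 10 passed with adjustment (0% of 30683 rows) and 0 without it (2.21% of rows), and edgeR's exact test and DESeq2 also gave 0 genes at the unadjusted threshold. The genotypes were without overlap for 0 of the 10 loci, compared to 4.15% of all loci and 5.26% of all rows. The log2FC of the locus sums was above 0 for 4 genes and below 0 for 6, with a median of −0.03 compared to 0.0018 over all loci, and its median size was 0.0936 compared to 0.108. All 10 genes passed the filter on low counts. A *p*-value that misses the threshold leaves differences open, and the 95% intervals lay within a 2-fold change in either direction for 7 genes. The exceptions were *Fads2*, *Elovl2* and *Elovl7*. This holds for locus sums, and on the symbol rows 6 genes lay within 2-fold, with *Scd1* (−1.07 to 0.47) as a further exception. The signs were not stable, since leaving out a single sample turned the sign for *Fads3*, *Elovl5*, *Elovl6*, *Elovl7*, *Scd1* and *Scd2*, and the split was 5 above and 5 below 0 when rows of other symbols were left out of the sums.

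**Figure D2:**
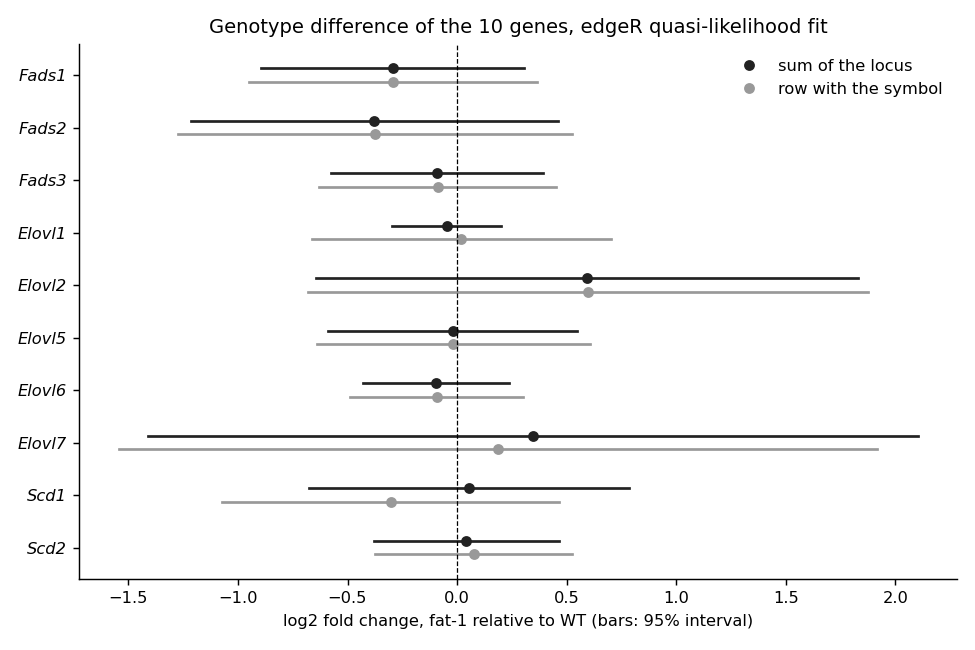
Log2 fold change of *fat-1* relative to WT with its 95% interval for each gene, fitted by edgeR on the sum of the locus (black) and on the row with the gene symbol (grey). All 20 intervals include 0, and they are widest for *Elovl7*, from −1.41 to 2.10 for the locus sum.

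Values are listed below in the order of samples 1, 2 and 3. *Fads1*, the delta-5 desaturase, had 15.3, 15.7 and 21.6 CPM in *fat-1* mice and 24.1, 25.5 and 14.8 CPM in WT mice. WT samples 1 and 2 were highest and WT sample 3 was lowest, so that the genotypes overlapped. The mean was 17.5 ± 3.55 CPM (SD, *n* = 3) in *fat-1* and 21.5 ± 5.85 CPM in WT, for a log2FC of −0.29 ± 0.25 (SE) with a 95% interval of −0.89 to 0.31 (edgeR, adjusted *p* = 1.00, as for each of the 10 genes). *Fads2*, the delta-6 desaturase, had 8.41, 6.24 and 10.4 CPM in *fat-1* and 13.9, 12.6 and 6.01 CPM in WT, with WT sample 3 again the lowest of all. Its log2FC was −0.38 ± 0.35, and the 95% interval from −1.22 to 0.46 allows from a 0.430-fold to a 1.38-fold level in *fat-1*. Single samples moved both values in either direction. Leaving out WT sample 3 gave log2FC values of −0.49 for *Fads1* and −0.66 for *Fads2*, with unadjusted *p*-values of 0.0417 and 0.0312 by edgeR, and 0 of the 10 genes then passed with adjustment. The log2FC of *Fads1* was −0.15 when WT sample 2 was left out (unadjusted *p* = 0.609 by edgeR), and that of *Fads2* was −0.16 when WT sample 1 was left out (unadjusted *p* = 0.685 by edgeR). WT sample 3 was also the WT isolate with the lowest epithelial marker mean (4.79), but that of *fat-1* sample 2 was lower still (4.72). Leaving out WT sample 3 alone thus kept a low isolate in *fat-1* and none in WT. *Fads3*, which acts on sphingoid bases of ceramides, had 21.5, 15.1 and 18.2 CPM in *fat-1* and 22.2, 21.1 and 15.1 CPM in WT. It was nearest to equal of the 3 desaturases of this family, at a log2FC of −0.09 ± 0.20.

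The *Fads* genes lie together on chromosome 19 (GRCm38). *Fads3* is on the plus strand from 10041569 to 10060110, *Fads2* is on the minus strand from 10062765 to 10101746, with 2654 bases between their 3′ ends, and *Fads1* is on the plus strand from 10182888 to 10196877. The 250 bases before the RefSeq start site (GRCm38.p6) are shown for *Fads2* and *Fads3*, neighbours on opposite strands, and for *Elovl5* and *Elovl7*, which are described below as high in opposite isolates. Each is read 5′ to 3′ on the strand of the gene. Capitals mark CCAAT (the letters bound by NF-Y) and the GC box GGGCGG (the letters bound by Sp1), both searched on either strand, and no marked stretches overlap. A sterol regulatory element TCACNCCAC was also searched on either strand.
Fads2, chr19:10101504-10101753, minus strand: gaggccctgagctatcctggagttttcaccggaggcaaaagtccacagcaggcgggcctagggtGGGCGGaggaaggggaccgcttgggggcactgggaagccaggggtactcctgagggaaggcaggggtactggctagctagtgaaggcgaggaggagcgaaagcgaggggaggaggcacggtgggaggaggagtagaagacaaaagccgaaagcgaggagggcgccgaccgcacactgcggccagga
Fads3, chr19:10041298-10041547, plus strand: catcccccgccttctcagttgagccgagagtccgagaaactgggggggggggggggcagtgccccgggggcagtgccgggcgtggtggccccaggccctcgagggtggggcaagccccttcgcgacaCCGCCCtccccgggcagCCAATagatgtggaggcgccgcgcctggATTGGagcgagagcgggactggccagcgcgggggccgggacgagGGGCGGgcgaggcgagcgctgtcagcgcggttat
Elovl5, chr9:77917115-77917364, plus strand: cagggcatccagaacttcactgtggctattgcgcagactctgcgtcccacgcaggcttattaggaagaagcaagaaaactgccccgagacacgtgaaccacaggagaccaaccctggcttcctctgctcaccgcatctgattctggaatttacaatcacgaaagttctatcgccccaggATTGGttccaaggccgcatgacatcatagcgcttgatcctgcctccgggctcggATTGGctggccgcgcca
Elovl7, chr13:108214154-108214403, plus strand: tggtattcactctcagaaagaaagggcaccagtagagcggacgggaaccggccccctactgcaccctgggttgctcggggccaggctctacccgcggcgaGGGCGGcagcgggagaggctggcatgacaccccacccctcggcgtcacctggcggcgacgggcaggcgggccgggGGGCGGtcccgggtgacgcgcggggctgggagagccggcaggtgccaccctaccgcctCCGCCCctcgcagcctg
The *Fads3* stretch held 2 CCAAT and 2 GC boxes, *Fads2* held 1 GC box, *Elovl5* held 2 CCAAT and *Elovl7* held 3 GC boxes. Of 32851 RefSeq promoters, 33.8% held CCAAT, 32.7% held GGGCGG and 1.05% held TCACNCCAC within the same 250 bases. The sterol element was in none of the 9 start sites of the 7 genes found in the table, which says only that these letters are not in this window. *Fads1*, *Scd1* and *Scd2* had no entry.

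*Elovl5*, the elongase of PUFA with intermediate chains (chromosome 9, 77917364 to 77984519, plus strand), had 26.8, 45.8 and 34.6 CPM in *fat-1* mice and 31.1, 32.7 and 44.9 CPM in WT mice. *Fat-1* sample 2 and WT sample 3 were highest, which are the isolates with the lowest epithelial marker means. The means were 35.7 ± 9.54 CPM (SD, *n* = 3) in *fat-1* and 36.2 ± 7.57 CPM in WT (log2FC −0.02 ± 0.24, 95% interval −0.59 to 0.55). *Elovl2* (chromosome 13, 41182381 to 41220405, minus strand), the elongase needed for docosahexaenoic acid, was barely present, with 20, 76 and 48 counts in *fat-1* and 44, 30 and 23 counts in WT. These counts are between 0.0948 and 0.354 CPM, and the highest and the lowest sample were both *fat-1*. Its log2FC was 0.59 ± 0.51 (95% interval −0.64 to 1.83). Leaving out *fat-1* sample 1 gave 0.97, with an unadjusted *p*-value of 0.0469 by edgeR, which did not pass with adjustment, and leaving out *fat-1* sample 2 gave 0.11 (unadjusted *p* = 0.831 by edgeR).

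*Elovl6*, which lengthens palmitate (chromosome 3, 129532355 to 129638495, plus strand), was among the most even of the enzymes, with 28.2, 27.8 and 31.7 CPM in *fat-1* and 28.3, 36.7 and 28.7 CPM in WT. WT sample 2 stood above the other samples, and the log2FC was −0.10 ± 0.14 (95% interval −0.43 to 0.24). *Elovl7*, an elongase of saturated fatty acids (chromosome 13, 108214404 to 108285683, plus strand), had 139, 24.6 and 35.8 CPM in *fat-1* and 85.9, 43.1 and 28.1 CPM in WT. The highest sample was 5.65 times the lowest and both were *fat-1*, so that the spread within a genotype exceeded the difference between them. The log2FC of *Elovl7* was 0.35 ± 0.73, and its sign turned (−0.78) when *fat-1* sample 1 was left out, compared to 0.90 when WT sample 1 was left out. *Elovl1*, an elongase of very long saturated and monounsaturated chains (chromosome 4, 118428093 to 118432953, plus strand), varied least as a locus sum, with 93.0, 91.1 and 107 CPM in *fat-1* and 92.8, 106 and 102 CPM in WT. Its symbol row alone had 16.6, 17.8 and 31.6 CPM in *fat-1* and 22.0, 19.9 and 23.2 CPM in WT. The highest sample was 1.90 times the lowest for this row, compared to 1.18 times for the sum. Its locus sum had a log2FC of −0.05 ± 0.10 (95% interval −0.30 to 0.20), but this sum also holds a row of *Med8*, a subunit of the Mediator complex.

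*Scd1*, the main stearoyl-CoA desaturase of fat and liver (chromosome 19, 44394455 to 44407879, minus strand), had 133, 258 and 223 CPM in *fat-1* mice and 194, 142 and 256 CPM in WT mice. The lowest and the highest sample were both *fat-1*, and WT sample 3 was next to the highest. The means were 205 ± 64.4 CPM (SD, *n* = 3) and 197 ± 57.4 CPM (log2FC 0.05 ± 0.30, 95% interval −0.68 to 0.78). *Scd2*, the form best known from brain (chromosome 19, 44293674 to 44306864, plus strand), had 55.4, 66.0 and 75.4 CPM in *fat-1* and 76.2, 62.0 and 52.9 CPM in WT. The samples of both genotypes covered nearly the same range, and the log2FC was 0.04 ± 0.17 (95% interval −0.38 to 0.46). Of all windows of 100 bases (the read length) in the annotated transcripts, 2.56% of those of *Scd1* and 0.879% of those of *Scd2* also occurred in another *Scd* gene, compared to 0 for the *Fads* and *Elovl* members.

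The counts of some loci were spread over several rows. The loci of *Fads1*, *Elovl1*, *Elovl7*, *Scd1* and *Scd2* had more than 1 row, and those of *Fads1*, *Elovl1* and *Scd2* held a row with another symbol. In the *Scd1* locus, the row with the symbol had 103, 117 and 112 CPM in *fat-1* and 133, 81.5 and 196 CPM in WT, and the row without a symbol had 30.8, 142 and 110 CPM in *fat-1* and 61.3, 60.4 and 59.6 CPM in WT. The symbol row was thus even in *fat-1* and spread in WT, and the other row was the reverse. The symbol row held 77.0%, 45.3% and 50.4% of the counts of the *Scd1* locus in *fat-1* and 68.4%, 57.4% and 76.7% in WT (two-sided exact permutation *p* = 0.5, adjusted *p* = 0.9 over 5 loci). The log2FC of the *Scd1* row alone was −0.30 ± 0.31, of the opposite sign to that of the locus sum, and leaving out WT sample 2 gave −0.57 with an unadjusted *p*-value of 0.0444 by edgeR.

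**Figure D3:**
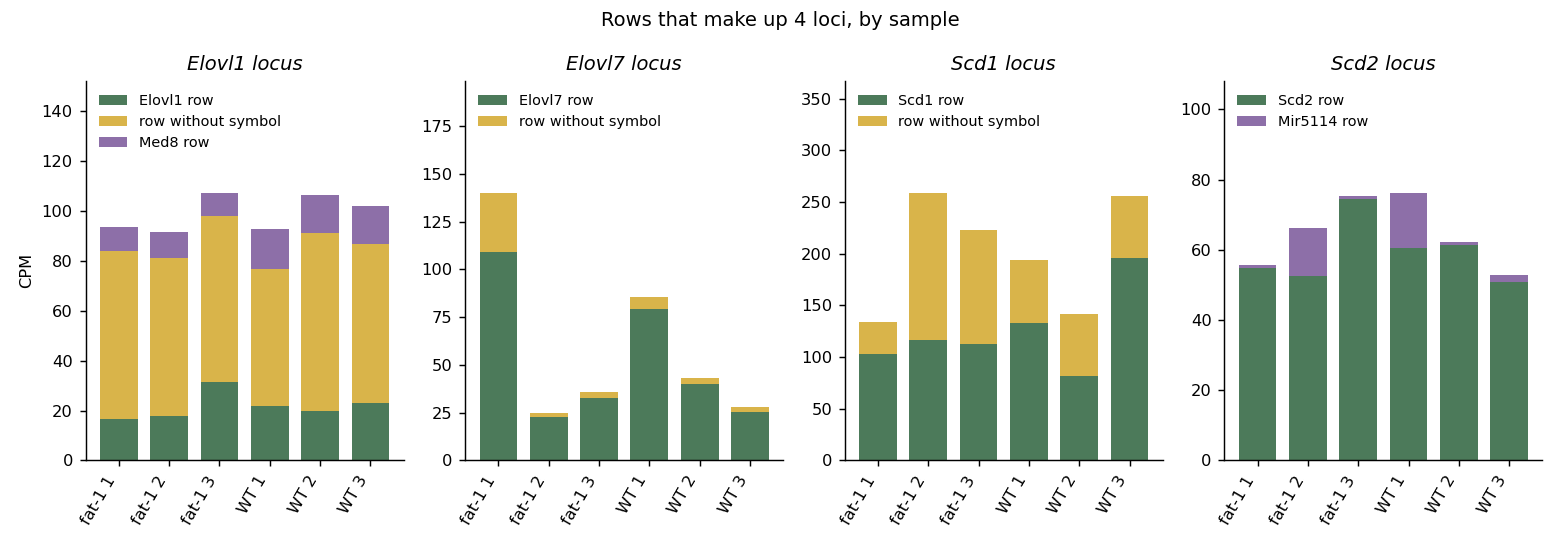
CPM of each row of the *Elovl1*, *Elovl7*, *Scd1* and *Scd2* loci, stacked by sample. The row without a symbol holds most of the *Elovl1* locus and a share of the *Scd1* locus that ranges from 23.0% to 54.7%, and the *Mir5114* row holds 20.8% and 20.6% of the *Scd2* locus in *fat-1* sample 2 and WT sample 1.

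The *Scd2* locus also held a row named for *Mir5114*, a microRNA whose 61 bases lie wholly within an exon of *Scd2*. This row had 165, 2937 and 147 counts in *fat-1* and 3358, 197 and 415 counts in WT. A single sample of each genotype was high, and the row with the symbol *Scd2* had a log2FC of 0.08 ± 0.18. In the *Elovl1* locus, the row with the symbol held 22.3% ± 6.33 of the counts in *fat-1* and 21.7% ± 2.63 in WT, and the row without a symbol held 67.7% ± 5.16 and 62.8% ± 4.08. The *Med8* row had 9.72 ± 0.524 CPM in *fat-1* and 15.4 ± 0.494 CPM in WT, and its samples did not overlap (log2FC −0.67 ± 0.13, unadjusted *p* = 0.00244 and adjusted *p* = 1.00 by edgeR). Over all rows, 5.26% were without overlap and 2.21% reached an unadjusted *p*-value of 0.05 by edgeR. The *Med8* row was named after its values were seen, because *Elovl1* with this row left out had a log2FC of 0.04 ± 0.12 in place of −0.05. *Med8* ends 12310 bases before *Elovl1* on the same strand, and reads of the row without a symbol cannot be divided between them. The last 53 exonic bases of *Elovl1* also overlap *Cdc20* on the other strand, and whether strand was used in counting is not given in the sources used here. In *Elovl7*, the row without a symbol held 22.0% of the locus in *fat-1* sample 1 and between 7.06% and 9.84% in the other samples.

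Compared per kilobase of annotated exon, *Scd1* and *Elovl1* had the highest levels and *Elovl2* the lowest. The mean over the 6 samples was 41.1 ± 11.2 CPM per kilobase (SD, *n* = 6) for *Scd1*, 36.2 ± 2.67 for *Elovl1*, 14.8 ± 11.2 for *Elovl7*, 11.8 ± 1.79 for *Scd2* and 10.2 ± 2.19 for *Elovl5*. It was 4.98 ± 0.850 for *Fads3*, 4.70 ± 0.543 for *Elovl6*, 4.05 ± 1.01 for *Fads1*, 2.91 ± 0.993 for *Fads2* and 0.0475 ± 0.0245 for *Elovl2*. In this order, the ranges of neighbours overlapped at all but 2 steps. *Elovl5* was above *Fads3* in 6 of 6 samples (2.05-fold by the means), and *Fads2* was above *Elovl2* in 6 of 6 (61.3-fold). *Fads1* was above *Fads2* in 6 of 6 samples although their ranges overlapped. *Scd1* held 31.3% ± 7.95 of the summed level of the 10 genes and *Elovl1* held 27.8% ± 2.85. The place of *Elovl1* depends on the rows counted, since its symbol row alone had 8.02 ± 1.97 CPM per kilobase, and the sum without *Med8* had 31.6 ± 2.78. With the longest transcript as the length, *Elovl1* (54.5) came before *Scd1* (41.6).

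**Figure D4:**
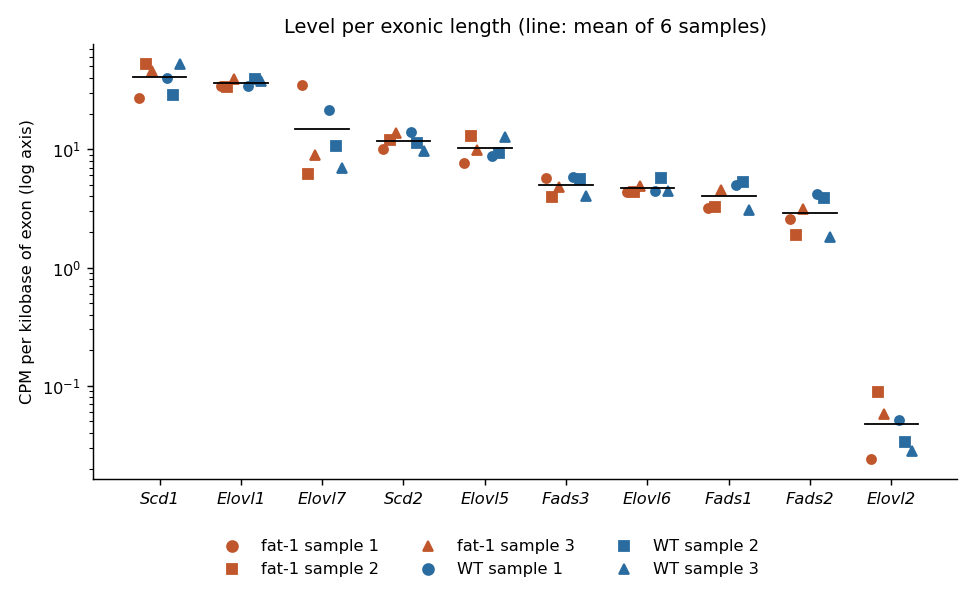
CPM per kilobase of merged annotated exon for each gene in the 6 samples, on a log axis, with the mean as a line. *Elovl2* lies far below the other 9 genes in every sample, and *Elovl7* shows the widest spread among these 9.

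Ratios within a sample, which do not depend on normalization between samples, did not separate the genotypes either. The log2 ratio of *Scd1* to *Scd2* was 1.60 ± 0.35 (SD, *n* = 3) in *fat-1* and 1.61 ± 0.59 in WT, and that of *Fads1* to *Fads2* was 1.08 ± 0.24 and 1.04 ± 0.25. These ratios are of CPM and are not per length. Over the 5 pairs examined (also *Elovl6* to *Elovl5*, *Elovl7* to *Elovl5* and *Scd1* to *Elovl6*), the differences lay between −0.05 and 0.13, the two-sided exact permutation *p*-values between 0.7 and 1, and all adjusted *p*-values were 1. Single samples moved these differences far more, that of *Elovl7* to *Elovl5* from −0.82 when *fat-1* sample 1 was left out to 0.82 when *fat-1* sample 2 was, and that of *Scd1* to *Scd2* to 0.33 when WT sample 3 was left out. From the symbol rows, the difference of *Scd1* to *Scd2* was −0.28. With 3 samples on each side, such a permutation cannot give less than *p* = 0.1.

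The level of *Fads3* followed the epithelial and immune markers of the isolates under every setting tried by Pearson's r, and other relations were less stable. All *p*-values of this kind are two-sided, from exact permutation of the 6 samples, and were adjusted over 30 relations (10 genes with 3 marker means). *Fads3* rose with the epithelial marker mean, with a Pearson's r of 0.953 (exact permutation *p* = 0.00139, the smallest that 6 samples allow, and 0.0278 after adjustment). Its Spearman's rho was 1.00 (exact permutation *p* = 0.00278, and 0.0833 after adjustment), and r was 0.745 without *fat-1* sample 2 and WT sample 3, which are farthest from the median. *Elovl5* fell as these markers rose, with an r of −0.958 (exact permutation *p* = 0.00694, and 0.0417 after adjustment) and a rho of −0.943 (exact permutation *p* = 0.0167, and 0.1 after adjustment). Its r was −0.775 without those samples, and the call was lost (0.0521 after adjustment in each case) with a pseudocount of 0.1 in place of 1 or with marker rows of other symbols left out. *Elovl7* had an r of 0.918, which did not pass (exact permutation *p* = 0.0181, and 0.0774 after adjustment), a rho of 0.943 (exact permutation *p* = 0.0167, and 0.1 after adjustment) and an r of 0.923 without those samples. Over the 30 relations, 5 passed by r and 0 by rho. After the mean of each genotype was removed, r was 0.964 for *Fads3*, −0.963 for *Elovl5* and 0.922 for *Elovl7*. The samples lie in 3 pairs along the epithelial marker mean, each with a *fat-1* and a WT sample, so that these *p*-values treat near neighbours as separate points. With 3 samples in a genotype, correlations within each were not computed.

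**Figure D5:**
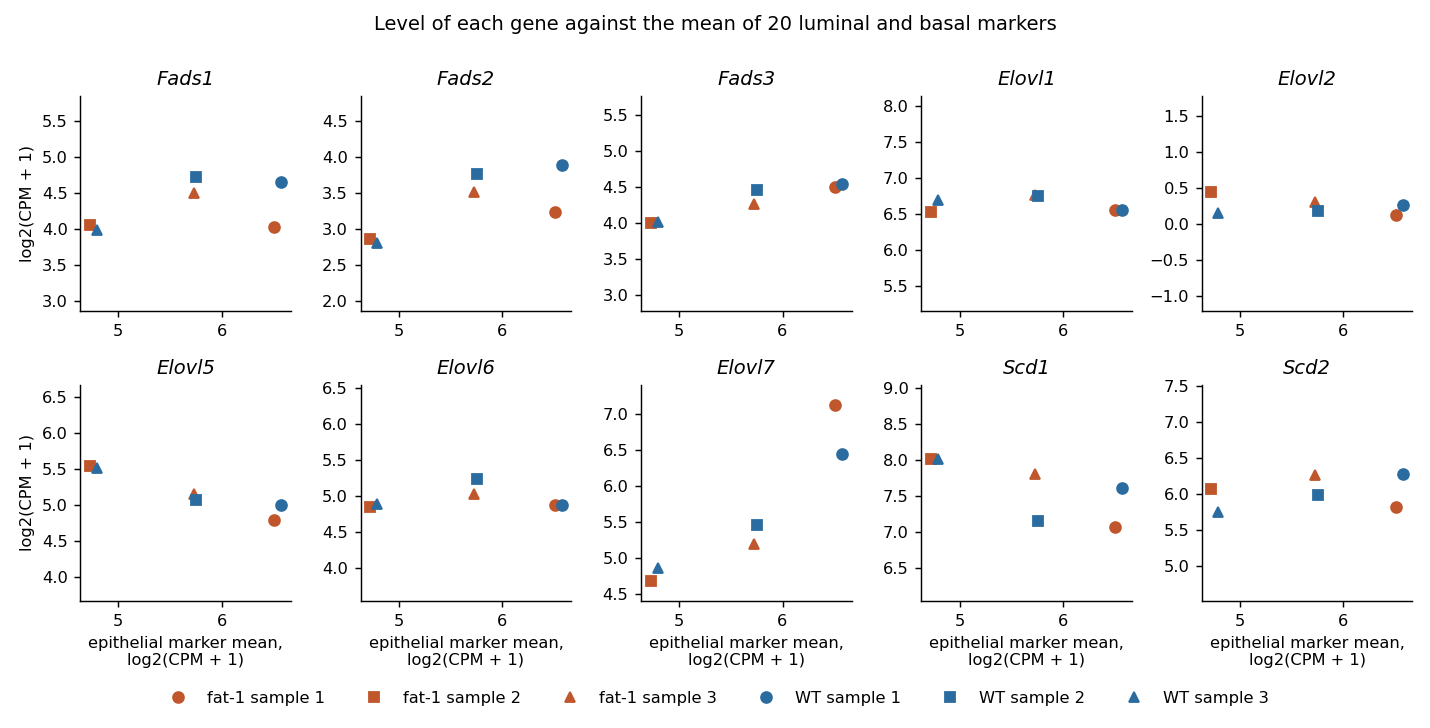
Log2(CPM + 1) of each gene against the mean log2(CPM + 1) of 20 luminal and basal markers in the 6 samples, with the vertical axis of every panel spanning 3 units. *Fads3* and *Elovl7* are highest in *fat-1* sample 1 and WT sample 1, and *Elovl5* is highest in *fat-1* sample 2 and WT sample 3.

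The mean log2(CPM + 1) of 8 immune markers ran against the epithelial mean, with 6.57 in *fat-1* sample 2 and 6.62 in WT sample 3 compared to 5.71 in *fat-1* sample 1 and 5.66 in WT sample 1. *Elovl5* rose with it, with an r of 0.949 (exact permutation *p* = 0.00556, and 0.0417 after adjustment) and a rho of 0.886 (exact permutation *p* = 0.0333, and 0.143 after adjustment). *Fads3* fell as it rose, with an r of −0.984 (exact permutation *p* = 0.00278, and 0.0278 after adjustment) and a rho of −0.943 (exact permutation *p* = 0.0167, and 0.1 after adjustment). Leaving out *fat-1* sample 2 and WT sample 3 gave an r of 0.771 for *Elovl5* and −0.953 for *Fads3*. The call for *Elovl5* was lost with a pseudocount of 0.1 (0.0521 after adjustment) and with marker rows of other symbols left out (0.0667 after adjustment).

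*Scd1* and *Fads2* leaned to opposite isolates without passing. *Scd1* had an r of 0.810 with the immune mean (exact permutation *p* = 0.0597, and 0.204 after adjustment), a rho of 0.771 (exact permutation *p* = 0.103, and 0.257 after adjustment) and an r of 0.486 without the same samples. *Fads2* had an r of 0.756 with the epithelial mean (exact permutation *p* = 0.104, and 0.260 after adjustment) and a rho of 0.771 (exact permutation *p* = 0.103, and 0.257 after adjustment). This rested on *fat-1* sample 2 and WT sample 3, since its r was −0.08 without them. *Fads1* rose with the mean of 8 adipocyte markers, with an r of 0.929 (exact permutation *p* = 0.00278, and 0.0278 after adjustment), a rho of 0.943 (exact permutation *p* = 0.0167, and 0.1 after adjustment) and an r of 0.885 without *fat-1* sample 1 and WT sample 2. With a pseudocount of 0.1 its r was 0.869 and the call was lost (0.0893 after adjustment). That mean moved only between 1.79 and 2.02, and 5 of the 8 markers, *Adipoq* and *Plin1* among them, were under 1 CPM in all samples. The adipocyte markers summed to between 112 and 133 CPM in *fat-1* and between 142 and 156 CPM in WT. Most of this was *Fabp4*, a gene that endothelial cells also express. *Fabp4* had 93.6, 106 and 83.2 CPM in *fat-1* and 112, 126 and 112 CPM in WT, without overlap, as for 4.15% of all loci. By edgeR's test of genotype across all loci, 1 of the 8 adipocyte markers passed 0.05 before adjustment (1.14% of all loci did) and 0 passed with it. The part of these markers in the level of *Fads1* was not tested. With the epithelial marker mean as a covariate in edgeR, 0 of the 10 enzymes reached an unadjusted *p*-value of 0.05 for genotype, and that of *Fads2* was 0.250.

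No other gene of the pathway passed either. In 8 lists with 46 genes, of which 45 had enough counts, 0 rose and 0 fell at an unadjusted *p*-value of 0.05 by edgeR on the locus sums, where 1.14% of all loci passed, and 0 passed with adjustment. With so low a share over all loci, a count of 0 does not set these genes apart. The median log2FC of the 45 genes was −0.0026, compared to 0.0018 over all loci, and the values lay between −0.42 and 0.51. The gene with the smallest *p*-value was *Srebf2*, the master regulator of cholesterol synthesis, among 13 regulators of these enzymes. It had 231, 226 and 229 CPM in *fat-1* and 200, 208 and 213 CPM in WT (log2FC 0.14 ± 0.07, unadjusted *p* = 0.0792 and adjusted *p* = 1.00 by edgeR). These values do not overlap, as for 4.15% of all loci, and *Srebf2* was picked from 45 genes by its *p*-value.

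The other steps of the elongation cycle reduce and dehydrate the product of each elongase. Among 6 genes of these steps, *Hacd4* had the smallest *p*-value. It had 1.93 ± 0.563 CPM (SD, *n* = 3) in *fat-1* and 2.59 ± 0.254 CPM in WT (log2FC −0.42 ± 0.24). Of the 3 electron donors of the desaturases, *Cyb5r3* (cytochrome b5 reductase) had a log2FC of −0.08 ± 0.15. Its locus sum held 78.6% of its counts in rows of its own and the rest in rows of other symbols. *Acsl4*, which activates arachidonic acid, had a log2FC of −0.17 ± 0.15, the smallest *p*-value of 5 acyl-CoA synthetases. Of 5 genes of palmitate synthesis, *Acly* (ATP citrate lyase) had 212 ± 8.11 CPM in *fat-1* and 217 ± 18.7 CPM in WT, a log2FC of −0.04 ± 0.09. *Hsd17b4*, of 4 genes of peroxisomal chain shortening, had a log2FC of −0.11 ± 0.16, and *Lpcat4*, of 4 acyltransferases, had a log2FC of 0.13 ± 0.17. The locus sum of *Agpat3*, an acyltransferase, held only 47.5% of its counts in rows of its own.

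Most of the mouse's other desaturases and elongases were scarce. *Elovl3*, *Elovl4*, *Scd3* and *Scd4* had at most 2.29 CPM in any sample, and *Scd4* had 38, 177 and 69 counts in *fat-1* and 65, 54 and 83 counts in WT (log2FC 0.51 ± 0.57). *Fads6* was higher, between 4.29 and 13.4 CPM. *Fads2b* had too few counts to be tested, with 34, 0 and 5 counts in *fat-1* and 0 in each WT sample. It is in a supplementary list that the study chose on these samples, so its direction is no independent evidence. A count of 0 allows up to 3 counts, and 1 of the 3 *fat-1* samples was at 0 too.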

How the data were processed

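Per the study's methods, RNA of the 6 pooled samples was sequenced as paired reads of 100 bases and aligned to GRCm38 with HISAT2, and transcripts were assembled and quantified with StringTie. The authors deposited estimated counts as whole numbers, in 61880 rows that belong to 53912 assembled loci. How the counts were derived from coverage, the annotation, the use of strand and the tool versions are not given in the sources used here. StringTie can place reads of 1 gene in several rows of a locus, so rows were tested as deposited and as locus sums, each normalized on its own. The 10 genes and all lists were chosen with earlier results of these data known. Counts were tested with edgeR 4.0.16 (R 4.3.3; filterByExpr, TMM, quasi-likelihood test, genotype as the only term, Benjamini–Hochberg over all features), after a test on simulated data. Alternatives were other normalization, filters and tests (DESeq2 1.42.0 and edgeR's exact test), a replicate block, a marker covariate and leaving out each sample. Shares, ratios and correlations used exact permutation (numpy 2.4.6, with ranks from scipy 1.17.1) with log2(CPM + 1) for correlations. Outside the 10 genes, the text names from each list the gene with the smallest *p*-value, the 5 loci most like *Fads2* and *Scd1*, and 6 marker genes. *Med8*, *Mir5114*, *Cdc20*, *Fabp4*, *Agpat3* and the lowly expressed family members were added after their values were seen. Lengths came from GENCODE M21, promoters from RefSeq (GRCm38.p6). Depth was between 204539059 and 232148824 counts, and *Elovl2* was the only one of the 10 genes under 1 CPM.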

Additional observations from a re-analysis of the deposited data

How the results depend on the processing

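At an unadjusted *p*-value of 0.05, 0 of the 10 enzymes were called under the other normalizations, filters and tests, on locus sums and on symbol rows. When 1 sample at a time was left out, 0 to 2 of them were called on locus sums (*Elovl2* when *fat-1* sample 1 was left out, *Fads1* and *Fads2* when it was WT sample 3) and 0 to 1 on symbol rows (*Scd1* without WT sample 2). None was called with adjustment in any of these fits. Over all loci, 482 of 24639 reached the unadjusted 0.05 without *fat-1* sample 1 and 542 of 24739 without WT sample 3. Over all rows, 635 of 31484 did without WT sample 2. *Elovl2* could not be tested at 1 CPM or more in 3 samples. With the replicate block, 0 of the 10 were called on either scale and the count over all loci went from 274 to 376. The labels give no litter or day for the numbers, and the correlations of deviations of same-numbered samples were 0.80, −0.16 and 0.13. Not every sample was most like its own number, and whether the numbers mark a pairing is not known. Of the relations to marker means, 5 passed as reported, 2 (both of *Fads3*) with a pseudocount of 0.1, and 3 (both of *Fads3*, and *Fads1* with the adipocyte mean) with marker rows of other symbols left out, a setting chosen after seeing the data. The cause was not tested. Over all loci, the count at an unadjusted 0.05 went from 274 to 579 with no filter, 63 at 1 CPM or more in 3 samples, 553 with the epithelial covariate, and 482 or 542 when *fat-1* sample 1 or WT sample 3 was left out. Over all rows it went from 678 to 1136 with no filter and 382 at 1 CPM or more in 3 samples. With adjustment, edgeR's exact test called 6 loci and 32 rows and DESeq2 8 loci and 93 rows, compared to 0, and leaving out a sample called at most 1 locus and 2 rows. The length of the longest transcript moved *Fads1* to 5.64, *Elovl1* to 54.5 and *Elovl5* to 12.9 CPM per kilobase. The 95% intervals leave changes beyond 2-fold open for *Fads2*, *Elovl2* and *Elovl7*, and on the symbol rows also for *Scd1*.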

Other observations

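The loci whose log2(CPM + 1) was most like that of *Fads2* over the 6 samples, among 8241 loci with a symbol and a mean of at least 10 CPM, were *Dip2a* (r = 0.994), *Dnmt1* (r = 0.994), *Dsel* (r = 0.992), *Maged1* (r = 0.986) and *Mme* (r = 0.986). *Mme*, the cell surface peptidase CD10, had 10.7, 6.72 and 14.2 CPM in *fat-1* samples 1, 2 and 3 and 20.4, 16.5 and 7.91 CPM in WT samples. *Dnmt1*, the maintenance DNA methyltransferase, moved only between 65.9 and 69.6 CPM, so that a high r does not mean a like size of change. In all, 72 loci had an r of 0.95 or more with *Fads2* and 22 with *Scd1*. Nearest to *Scd1* were *Tmem94* (r = 0.989), *Ppp1r35* (r = 0.985), *Herpud1* (r = 0.980), *Rnf220* (r = 0.976) and *Rpl17-ps10* (r = 0.971). *Herpud1*, a gene of the endoplasmic reticulum stress response, had 66.3, 87.1 and 83.4 CPM in *fat-1* samples 1, 2 and 3 and 77.5, 63.2 and 86.0 CPM in WT samples. These likenesses are picked from many loci over 6 samples and are given as descriptions.

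Among the enzymes themselves, 45 pairs were compared over the 6 samples. *Fads1* and *Fads2*, which act in 1 chain of reactions, had a Pearson's r of 0.933 (two-sided exact permutation *p* = 0.0222, and 0.250 after adjustment over the pairs) and a Spearman's rho of 0.886 (exact permutation *p* = 0.0333, and 0.214 after adjustment). With the 2 most distant samples left out, their r was 0.824. *Elovl5*, which acts between them in that chain, leaned the other way. Its r was −0.404 with *Fads1* (exact permutation *p* = 0.361) and −0.685 with *Fads2* (exact permutation *p* = 0.140). The pair of *Fads3* and *Elovl5* had a larger r in size, at −0.945 (exact permutation *p* = 0.00694, and 0.250 after adjustment). A link to the chain of reactions was not tested. No pair passed with adjustment.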
